A study of Mus musculus with 12 samples.

Results

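Expression of 8 genes for the membrane of the peroxisome was followed in whole livers of mouse fetuses that lacked PPARα, the nuclear receptor encoded by *Ppara*, and in livers of wild-type fetuses. The genes were taken by name: *Pex3*, *Pex16* and *Pex19* for membrane assembly, *Pex11a* and *Pex11g* for growth and division, and *Abcd2*, *Abcd3* and *Pxmp4* for transporters and other membrane proteins. All 8 were measured, out of 19938 genes on the arrays, each through a single probeset. Livers labelled PPARa -/- (6 fetuses, *Ppara*-/- below) were set against livers labelled PPARa +/+ (6 fetuses, *Ppara*+/+ below), all at embryonic day E19.5 and untreated. Parents were heterozygous for the null allele, which was present in every tissue. The labels give the strain as SV129, whereas the study's methods give C57BL/6. Term fetuses were delivered by cesarean section and 1 liver was hybridized per array. According to the methods some livers of a genotype shared a litter, which the labels do not name, and the p-values do not allow for it.

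Peroxisomes break down very long-chain and branched fatty acids, and in liver they also shorten the side chain of bile acid precursors. Their membrane proteins are made in the cytosol, bound there by PEX19 and handed to PEX3 on the membrane, while PEX16 recruits PEX3. PEX11 proteins elongate the membrane before division, and ABCD2 and ABCD3, ABC transporters of the D family, bring fatty acyl-CoA into the organelle. PPARα binds DNA as a heterodimer with RXR at repeats of a short core motif, and in rodents its ligands increase the number of hepatic peroxisomes.

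The deposited values are log2 signals, so a difference of 1 is a doubling, and signals of different genes cannot be compared with each other. *Ppara* itself lay between 9.66 and 9.94 in *Ppara*-/- livers, against 10.71 to 10.95 in *Ppara*+/+ livers, a difference of -1.01 ± 0.06 (SE, n = 6 each; limma, adjusted p = 3.6e-08). The part of the gene that its probeset covers was not given in the sources used here. Array medians lay between 6.71 and 6.75. On the first principal component, 41.9% of the variance, the genotypes overlapped through *Ppara*-/- mouse 1 and *Ppara*+/+ mouse 6. *Xist* and Y-linked genes marked 5 females and 1 male among *Ppara*-/- fetuses, against 3 females and 3 males among *Ppara*+/+ fetuses. The mean of 8 hepatocyte markers was 13.03 to 13.05 in *Ppara*-/- livers and 13.01 to 13.07 in *Ppara*+/+ livers, with 0 of them called. Over all genes 7.24% were called, so 0 calls in a list this short say little. This mean lay near the highest value on any array, 13.91, so a change in hepatocyte content could be missed. The lowest of the 8, *Hnf4a*, averaged 11.38 in *Ppara*-/- livers and 11.44 in *Ppara*+/+ livers. The mean of 9 erythroid markers was 11.03 to 11.22 in *Ppara*-/- livers and 10.95 to 11.2 in *Ppara*+/+ livers, again with 0 called.

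In the livers without PPARα, 6 of the 8 membrane genes were lower. *Pex16* was 1.89-fold and *Abcd2* 1.87-fold lower, followed by *Abcd3* at 1.75-fold, *Pxmp4* at 1.66-fold, *Pex19* at 1.4-fold and *Pex3* at 1.17-fold. The genes *Pex11a* and *Pex11g* did not pass the test. None was higher. Over all genes 3.82% were called lower and 3.42% higher (limma, Benjamini-Hochberg over all genes, threshold 0.05). For the same 6 genes every *Ppara*-/- liver lay below every *Ppara*+/+ liver, which held for 2.29% of all genes. The median difference was -0.61 over the 8 genes and 0.01 over all genes. In whole liver, fewer cells that express a gene and less RNA per cell cannot be told apart.

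**Figure D1:**
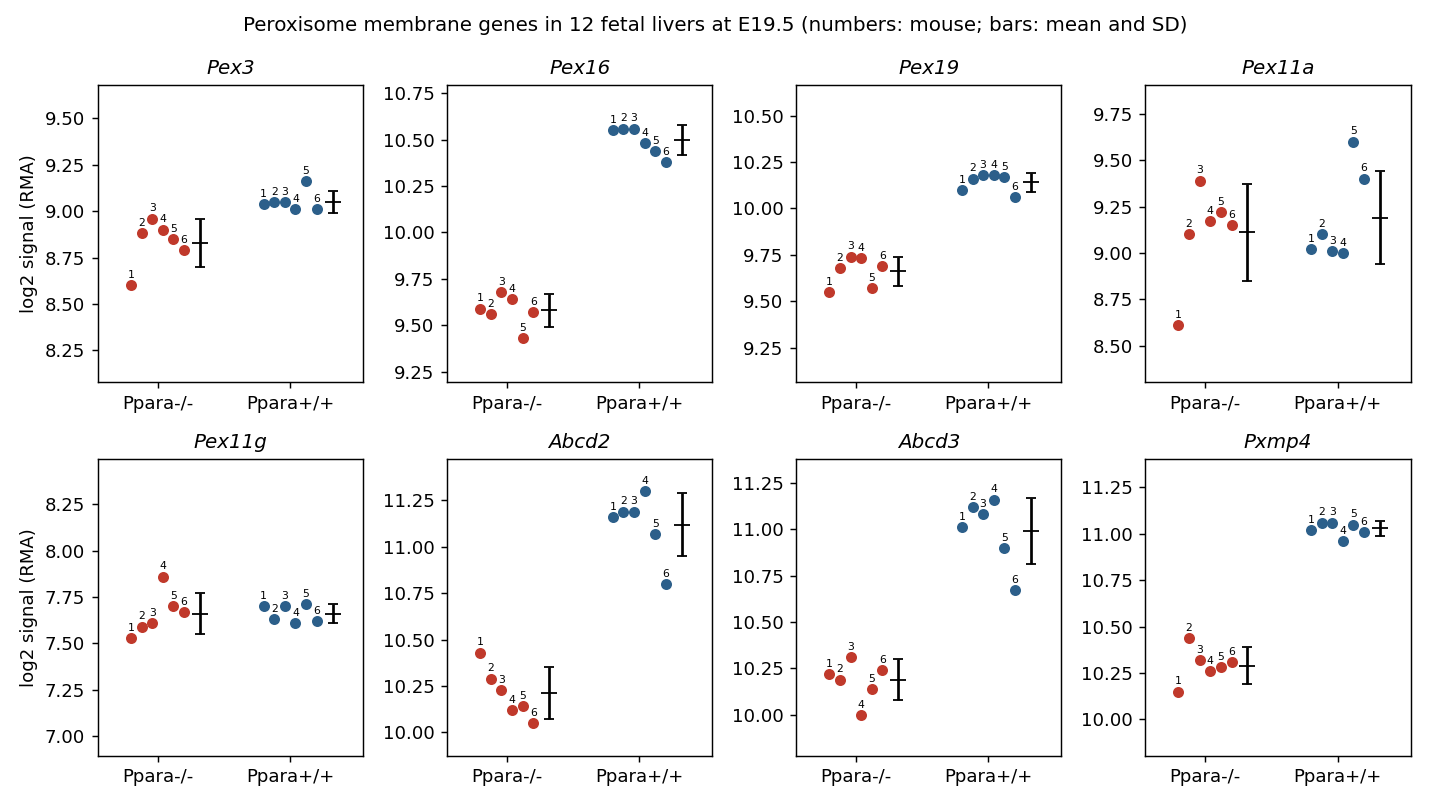
Log2 signal (vertical axes, each spanning the same range) of the 8 membrane genes in 6 *Ppara*-/- livers (red, left) and 6 *Ppara*+/+ livers (blue, right); digits give the mouse and bars the mean and SD. The groups were apart for *Pex3*, *Pex16*, *Pex19*, *Abcd2*, *Abcd3* and *Pxmp4*, and overlapped for *Pex11a* and *Pex11g*.

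The genes of membrane assembly were all lower. *Pex16*, whose product recruits PEX3 to the membrane, had log2 signals of 9.59, 9.56, 9.68, 9.64, 9.43 and 9.57 in *Ppara*-/- mice 1 to 6, against 10.55, 10.56, 10.56, 10.48, 10.44 and 10.38 in *Ppara*+/+ mice 1 to 6. No liver came near the other genotype, and the gap between the groups was wider than the range within either. *Pex16* averaged 9.58 ± 0.09 in *Ppara*-/- livers and 10.5 ± 0.08 in *Ppara*+/+ livers (SD, n = 6 each), a difference of -0.92 ± 0.05 (SE; 95% interval -1.03 to -0.81) or 1.89-fold (limma, adjusted p = 3.6e-08). By p-value it was number 18 of all genes.

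*Pex19* encodes the cytosolic chaperone and import receptor of peroxisomal membrane proteins. Its log2 signal was 9.55, 9.68, 9.74, 9.73, 9.57 and 9.69 in *Ppara*-/- mice 1 to 6, against 10.1, 10.16, 10.18, 10.18, 10.17 and 10.06 in *Ppara*+/+ mice 1 to 6. The groups did not overlap, and *Ppara*-/- mouse 1 and *Ppara*+/+ mouse 6 were the lowest of their genotypes. *Pex19* averaged 9.66 ± 0.08 in *Ppara*-/- livers and 10.14 ± 0.05 in *Ppara*+/+ livers (SD, n = 6 each). The difference of -0.48 ± 0.05 (SE) was 1.4-fold (limma, adjusted p = 1.4e-05).

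*Pex3*, the membrane anchor at which PEX19 docks, had log2 signals of 8.6, 8.88, 8.96, 8.9, 8.85 and 8.79 in *Ppara*-/- mice 1 to 6, against 9.04, 9.05, 9.05, 9.01, 9.16 and 9.01 in *Ppara*+/+ mice 1 to 6. The groups were apart, but *Ppara*-/- mouse 3 lay just under the lowest *Ppara*+/+ livers. The difference was -0.22 ± 0.06 (SE, n = 6 each; 95% interval -0.35 to -0.1), 1.17-fold (limma, adjusted p = 0.031; exact two-sided permutation test over 924 assignments, p = 0.0022, the smallest it allows). The limma call was lost with a sex score as a covariate (adjusted p = 0.071) and when a single liver was left out, namely *Ppara*-/- mouse 2 (0.055), 5 (0.062) or 6 (0.069) or *Ppara*+/+ mouse 1 (0.057), 2 (0.063), 3 (0.06) or 5 (0.063). Over the 24 other settings fitted with limma to both animal number groups together the difference stayed between -0.25 and -0.18, with adjusted p between 0.01 and 0.071.

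The assembly genes fell unequally. The log2 difference of *Pex16* minus that of *Pex19* was -0.44 ± 0.04 (SE, n = 6 each), and minus that of *Pex3* it was -0.7 ± 0.07. The difference of *Pex19* minus that of *Pex3* was -0.26 ± 0.04. Each of these had an exact two-sided permutation p of 0.0022, or 0.0036 adjusted over 5 pairs of members, which were chosen after their values were seen. How strictly the signal of each probeset follows its RNA was not tested.

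Both ABC transporter genes were lower. *Abcd2*, a transporter for very long-chain fatty acyl-CoA, had log2 signals of 10.43, 10.29, 10.23, 10.12, 10.14 and 10.05 in *Ppara*-/- mice 1 to 6, against 11.16, 11.19, 11.19, 11.3, 11.07 and 10.8 in *Ppara*+/+ mice 1 to 6. The genotypes were well apart, with *Ppara*-/- mouse 1 the highest of its group and *Ppara*+/+ mouse 6 the lowest. *Abcd2* averaged 10.21 ± 0.14 in *Ppara*-/- livers and 11.12 ± 0.17 in *Ppara*+/+ livers (SD, n = 6 each), a difference of -0.91 ± 0.08 (SE; 95% interval -1.08 to -0.73) or 1.87-fold (limma, adjusted p = 7.3e-06).

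*Abcd3* encodes PMP70, an abundant protein of the peroxisomal membrane that is widely used as its marker and that carries branched and dicarboxylic acyl-CoA. Its log2 signal was 10.22, 10.19, 10.31, 10, 10.14 and 10.24 in *Ppara*-/- mice 1 to 6, against 11.01, 11.12, 11.08, 11.16, 10.9 and 10.67 in *Ppara*+/+ mice 1 to 6. Again the groups did not overlap and *Ppara*+/+ mouse 6 was the lowest of its genotype. The difference was -0.81 ± 0.08 (SE, n = 6 each; 95% interval -0.97 to -0.64), 1.75-fold (limma, adjusted p = 1.8e-05). The differences of *Abcd2* and *Abcd3* were -0.1 ± 0.06 apart (SE; exact two-sided permutation p = 0.14, 0.17 adjusted over the 5 pairs). Without *Ppara*-/- mouse 1 they were -0.14 apart (same test, adjusted p = 0.024), but leaving out any other single liver did not make this pair pass.

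*Pxmp4* encodes a small integral membrane protein of the peroxisome. Its log2 signal was 10.15, 10.44, 10.32, 10.26, 10.28 and 10.31 in *Ppara*-/- mice 1 to 6, against 11.02, 11.06, 11.06, 10.96, 11.05 and 11.01 in *Ppara*+/+ mice 1 to 6. The *Ppara*+/+ livers were close together, at an SD of 0.04 around 11.03, and every *Ppara*-/- liver lay below them, at 10.29 ± 0.1 (SD, n = 6 each). The difference of -0.73 ± 0.05 (SE; 95% interval -0.84 to -0.63) was 1.66-fold (limma, adjusted p = 2.2e-07).

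Neither gene for growth and division was called. *Pex11a*, the member of its family that in rodents responds to peroxisome proliferators, had log2 signals of 8.61, 9.1, 9.39, 9.17, 9.22 and 9.15 in *Ppara*-/- mice 1 to 6, against 9.02, 9.1, 9.01, 9, 9.6 and 9.4 in *Ppara*+/+ mice 1 to 6. The groups overlapped, with *Ppara*-/- mouse 1 far below all others and *Ppara*+/+ mice 5 and 6 above the rest of their genotype. The difference was -0.08 ± 0.13 (SE, n = 6 each; 95% interval -0.36 to 0.19; limma, adjusted p = 0.8; exact two-sided permutation p = 0.6), and 0.02 without *Ppara*-/- mouse 1. The interval therefore still allows a fall of 0.36.

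*Pex11g*, another member of the family, had log2 signals of 7.53, 7.59, 7.61, 7.86, 7.7 and 7.67 in *Ppara*-/- mice 1 to 6, against 7.7, 7.63, 7.7, 7.61, 7.71 and 7.62 in *Ppara*+/+ mice 1 to 6. The genotypes overlapped throughout, and *Ppara*-/- mouse 4 was the highest liver. The difference was 0 ± 0.05 (SE, n = 6 each; 95% interval -0.11 to 0.11; limma, adjusted p = 1). The differences of *Pex11a* and *Pex11g* were -0.08 ± 0.14 apart (SE; exact two-sided permutation p = 0.58).

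Fetuses carry an animal number in their labels, and the 6 lowest numbers belong to *Ppara*-/- mice 1 and 2 and *Ppara*+/+ mice 1 to 4. By *Xist* and Y-linked genes the 6 highest numbers were all female, and every male was among the 6 lowest. Number group and sex are therefore partly confounded. The split by this number was looked at with the values known, and an effect of the number on *Pex11a* was not tested. Among the 6 highest numbers *Pex11a* lay between 9.15 and 9.39 in the 4 *Ppara*-/- livers and between 9.4 and 9.6 in the 2 *Ppara*+/+ livers. The difference there was -0.27 ± 0.09 (SE; limma, adjusted p = 0.28). Among the 6 lowest numbers *Pex11a* was 8.61 and 9.1 in the *Ppara*-/- livers and 9 to 9.1 in the *Ppara*+/+ livers, a difference of -0.18 ± 0.12 (SE; limma, adjusted p = 0.63). With the number group (lowest or highest) as a block the difference was -0.22 ± 0.08 (SE; limma, adjusted p = 0.15), so *Pex11a* passed the test in none of these fits.

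All 6 members called lower kept their direction in both number groups. *Pex16*, *Pex19*, *Abcd2*, *Abcd3* and *Pxmp4* were called in each, where 0.818% of all genes were called lower among the 6 lowest numbers and 0.532% among the 6 highest. *Pex16* differed by -0.97 among the 6 lowest numbers and -0.83 among the 6 highest (limma, adjusted p = 2.2e-04 and 0.0047), and *Pxmp4* by -0.73 and -0.74 (adjusted p = 0.0078 and 0.0019). *Abcd3* differed by -0.88 and -0.61 (adjusted p = 6.1e-04 and 0.041). *Pex3* differed by -0.3 and -0.21, and passed in neither (adjusted p = 0.23 and 0.33), while *Pex11g*, which was not called, differed by -0.1 and 0.05. Whether a difference itself varied between the number groups was not tested, and such a change could not be told apart from one with sex.

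**Figure D2:**
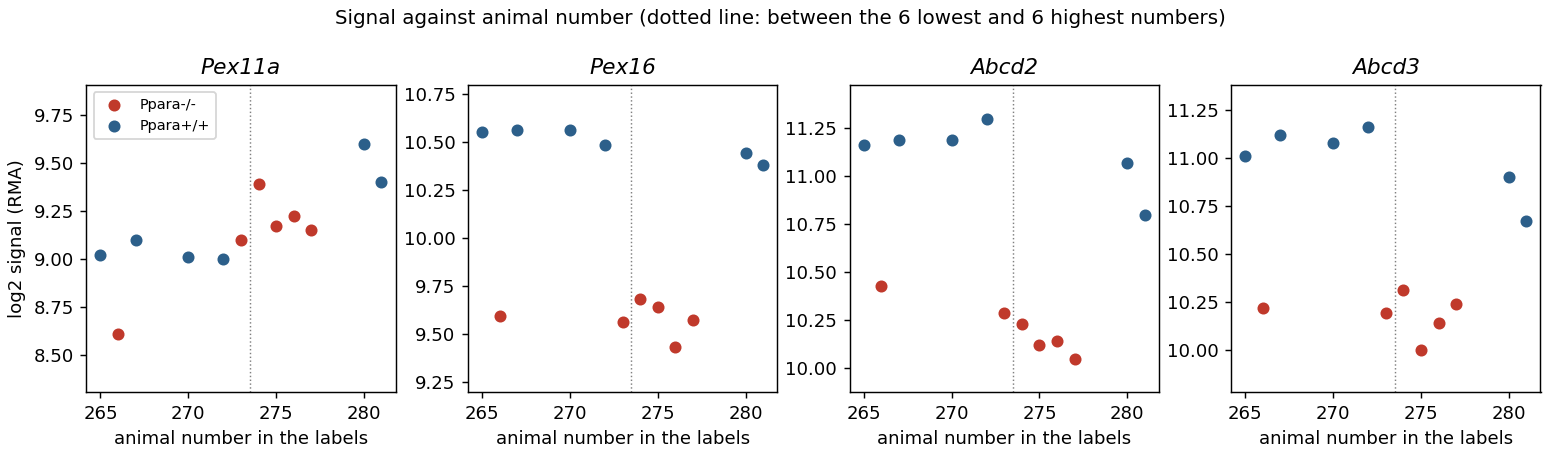
Log2 signal (vertical axis) of *Pex11a*, *Pex16*, *Abcd2* and *Abcd3* against the animal number in the labels (horizontal axis), for *Ppara*-/- livers (red) and *Ppara*+/+ livers (blue). For *Pex11a* the 6 highest numbers, right of the dotted line and all female, lay at 9.15 or above in both genotypes. For the other genes the genotypes were apart along the whole axis.

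Promoter sequences are shown for a pair of genes that fell, *Pex16* and *Pxmp4*, and for both growth genes that were not called, so that the letters near their starts can be compared. They are the 250 bases before a gene start in RefSeq, build GRCm38.p6, written 5′ to 3′ on the strand of the gene. The 250 bases before another start of *Pex16*, chr2:92374989-92375238, are not shown and held none of the motifs marked here. Capitals mark AGGTCA, the core motif bound by PPARα and RXR, the CCAAT box CCAAT and the GC box GGGCGG, on either strand.
Pex16 (chr2:92374426-92374675, plus strand): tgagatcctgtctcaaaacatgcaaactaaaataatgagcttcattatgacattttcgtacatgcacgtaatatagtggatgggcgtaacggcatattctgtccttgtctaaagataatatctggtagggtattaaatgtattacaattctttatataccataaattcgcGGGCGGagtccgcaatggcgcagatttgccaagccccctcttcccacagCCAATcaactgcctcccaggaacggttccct
Pxmp4 (chr2:154603674-154603923, minus strand): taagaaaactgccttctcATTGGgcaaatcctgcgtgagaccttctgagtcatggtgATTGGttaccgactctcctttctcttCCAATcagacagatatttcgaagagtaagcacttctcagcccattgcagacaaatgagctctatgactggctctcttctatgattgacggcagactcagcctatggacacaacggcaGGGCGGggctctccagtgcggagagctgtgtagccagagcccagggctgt
Pex11a (chr7:79743132-79743381, minus strand): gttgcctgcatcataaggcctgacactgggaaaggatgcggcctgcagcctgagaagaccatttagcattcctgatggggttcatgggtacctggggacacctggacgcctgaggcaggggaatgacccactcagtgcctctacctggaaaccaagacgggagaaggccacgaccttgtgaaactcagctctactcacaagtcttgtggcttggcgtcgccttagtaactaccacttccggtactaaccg
Pex11g (chr8:3467649-3467898, minus strand): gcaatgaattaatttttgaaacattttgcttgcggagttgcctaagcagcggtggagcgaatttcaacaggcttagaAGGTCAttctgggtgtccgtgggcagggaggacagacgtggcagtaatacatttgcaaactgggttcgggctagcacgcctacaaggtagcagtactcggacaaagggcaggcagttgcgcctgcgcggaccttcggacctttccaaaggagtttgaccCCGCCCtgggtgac

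Of the members, 6 had promoter windows, 8 windows in all, and *Pex19* and *Abcd2* had none in the table used. In total 32851 windows of 300 bases (250 before and 50 after a start) were searched on both strands. The core motif AGGTCA occurred in 16.3% of all windows, in a window of 16.3% of measured genes and of 15.6% of genes called lower. Among the members it occurred only in that of *Pex11g*, from -173 to -168 relative to its start. The full element of this motif repeated with 1 base between, written loosely as AGGNCANAGGNCA, occurred in 0.381% of windows and in the strict form AGGTCANAGGTCA in 0.0396%, and in 0 windows of the members. Of measured genes with a window 0.41% held the loose and 0.0512% the strict form, against 0.321% and 0% of genes called lower. A CCAAT box, in 37.4% of windows, 41.7% of measured genes with a window and 44.9% of genes called lower, was found in *Pex16* and, at 3 positions, in *Pxmp4*. A GC box, in 35.7% of windows, 52.9% of measured genes and 69.2% of genes called lower, was found in *Pex16*, *Pxmp4*, *Pex11g* and, after the start, in *Pex11a*, and the motifs do not overlap each other. Sites outside these windows were not searched.

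The genes next to the members on the chromosome were also looked at. Of the 16 nearest measured neighbours, in RefSeq gene order, 0 were called lower and 1 higher. Over all genes 3.82% were called lower and 7.24% in either direction, so these counts in so few genes say little. Beside *Pex16* lie *Large2* (difference 0.03) and 1700029I15Rik (-0.11), and beside *Pex19* lie *Copa* (0.01), a coatomer subunit, and *Dcaf8* (0.1). The neighbour that was called was *Kif21a*, a kinesin gene before *Abcd2*, at 8.99 ± 0.24 in *Ppara*-/- livers and 8.54 ± 0.05 in *Ppara*+/+ livers (SD, n = 6 each), a difference of 0.45 ± 0.09 (SE; limma, adjusted p = 0.0078), and not called among the 6 lowest animal numbers alone (0.26, adjusted p = 0.5). *Abcd2* and *Kif21a* thus moved in opposite directions. *Plin1*, the lipid droplet gene before *Pex11a*, differed by 0.06 (adjusted p = 0.71). *Adat2*, *Wdr93* and *Tex45* overlap *Pex3*, *Pex11a* and *Pex11g*, and their differences of 0.03, -0.02 and 0.21 did not pass the test.

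**Figure D3:**
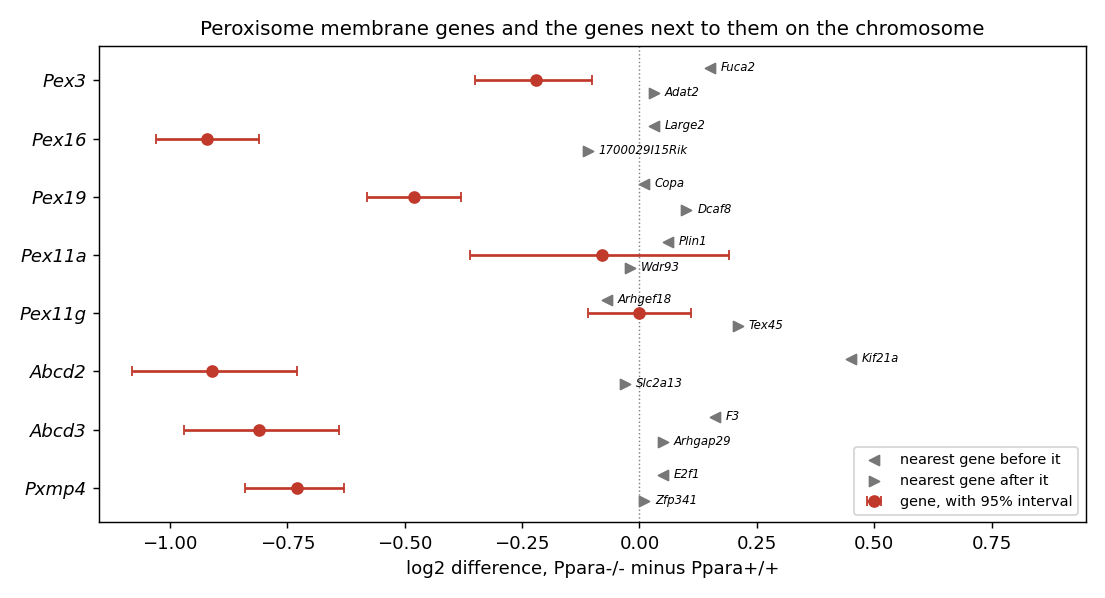
Log2 difference, *Ppara*-/- minus *Ppara*+/+ (horizontal axis), of each membrane gene (red, with its 95% interval) and of the nearest measured gene before and after it on the chromosome (grey triangles, without intervals). The members that fell lie left of 0 and their neighbours close to it, apart from *Kif21a* at 0.45.

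Other genes of the peroxisome gave the setting for these falls. Of 17 measured genes for other membrane proteins, division and tethering, 5 were lower, 1 was higher and 11 were not called, with a median of -0.05. Lower were the fatty acyl-CoA synthetase *Slc27a2* (-0.59, adjusted p = 4.4e-04), the fatty aldehyde dehydrogenase *Aldh3a2* (-0.51, 6.7e-05), *Acbd5*, which tethers peroxisomes to the endoplasmic reticulum (-0.45, 0.0028), *Tmem135* (-0.32, 0.0015) and *Pxmp2* (-0.34, 0.021), and *Mpv17l* was higher (0.22, 0.033; limma throughout). The *Pxmp2* call was lost on leaving out *Ppara*-/- mouse 4, *Ppara*-/- mouse 5 or any 1 of *Ppara*+/+ mice 2 to 4, and that of *Mpv17l* without any 1 of *Ppara*-/- mice 2 to 6 or *Ppara*+/+ mice 1 to 4. With the sex score neither was called (adjusted p = 0.065 for *Pxmp2* and 0.095 for *Mpv17l*), and *Mpv17l* was also not called with the erythroid score (0.051) or the number group as a block (0.076).

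The division machinery that peroxisomes share with mitochondria did not pass the test. *Dnm1l*, the dynamin that cuts the membrane, differed by -0.05, and its receptors *Fis1* and *Mff* by 0.03 and 0.05. *Abcd4*, listed here only for its family name and not as a transporter of the peroxisome, differed by 0.19 (limma, adjusted p = 0.23). It is therefore no peroxisomal counterpart to *Abcd2* (-0.91) and *Abcd3* (-0.81).

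Import of matrix proteins uses other peroxins. Of 9 measured import genes 2 were lower, 0 were higher and 7 were not called, with a median of 0.01. *Pex14* and *Pex13*, which form the docking site on the membrane, differed by -0.24 and -0.2 (limma, adjusted p = 0.022 and 0.033), and these calls were lost, *Pex14* without *Ppara*-/- mouse 6, *Ppara*+/+ mouse 2 or *Ppara*+/+ mouse 3 and *Pex13* without any 1 of *Ppara*-/- mice 2, 4, 5 and 6 or *Ppara*+/+ mice 1 to 5. Neither was called with the sex score (adjusted p = 0.067 for *Pex14* and 0.09 for *Pex13*), nor *Pex13* with the erythroid score (0.051) or the number group as a block (0.066). *Pex26*, *Pex5l* and *Pex6* differed by 0.12, 0.07 and 0.02 and were not called. The cargo receptor genes *Pex5* and *Pex7* differed by 0.01 and -0.1, beside -0.92 for *Pex16*.

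Among 36 measured enzymes of the matrix, 20 were lower, 1 was higher and 15 were not called, with a median of -0.36. *Decr2* and *Ech1*, which process unsaturated fatty acids, both differed by -1.59, and *Ehhadh* and *Hsd17b4*, the bifunctional enzymes of β-oxidation, by -1.81 and -1.25 (limma, adjusted p = 1.7e-09, 1.9e-09, 6.3e-07 and 6.3e-08). *Eci2*, an isomerase of the same pathway, differed by -1.31 (adjusted p = 5.4e-09). The thiolase gene *Acaa1b* differed by -3.01 (adjusted p = 1.1e-07), while *Cat*, the catalase of the same compartment, differed by -0.00 (adjusted p = 0.98). The widest difference among the 8 membrane genes, -0.92 for *Pex16*, was nearer to 0 than those of these 6 lowered enzymes, a contrast that was not tested. These 6 were picked for the smallest p of their list. The median of the whole list, -0.36, was nearer to 0 than the -0.61 of the 8 membrane genes.

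**Figure D4:**
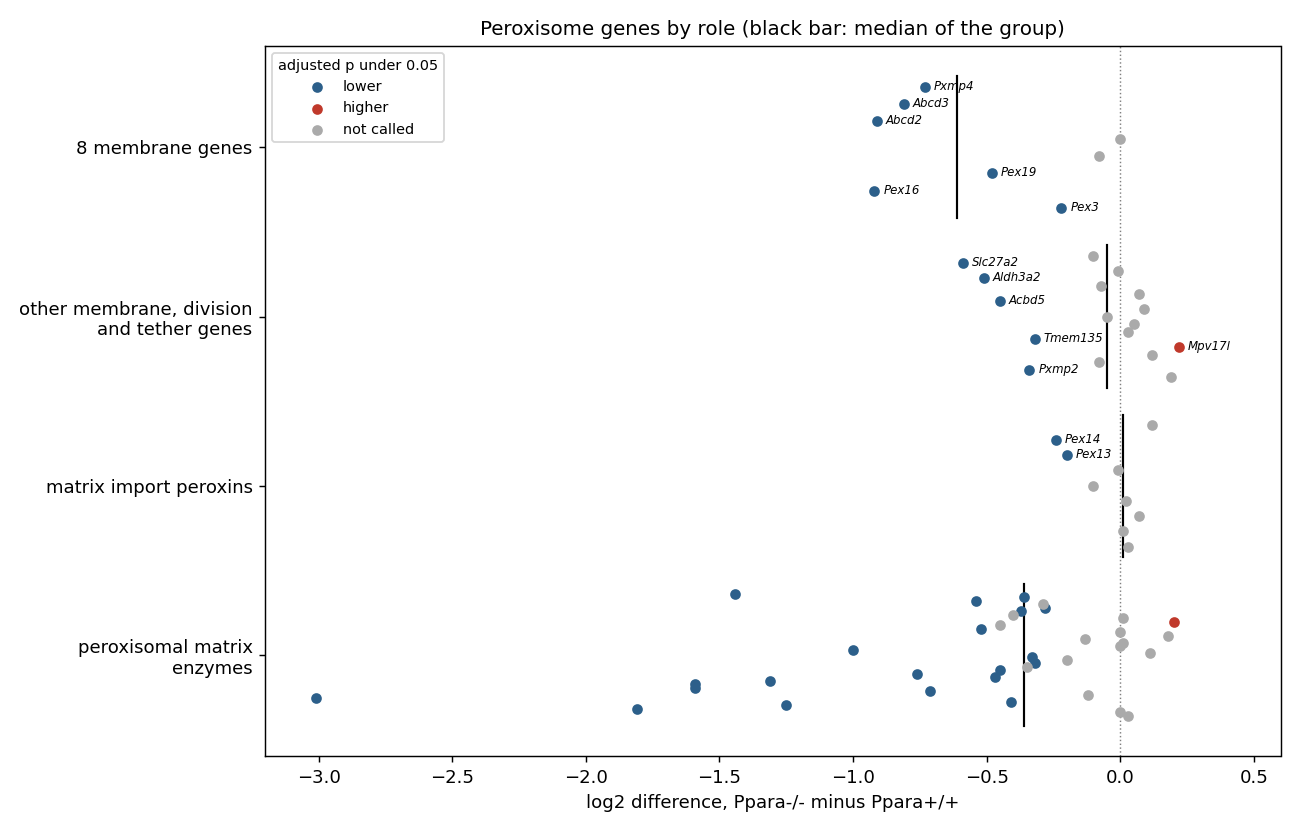
Log2 difference, *Ppara*-/- minus *Ppara*+/+ (horizontal axis), of the measured genes of the peroxisome by role, 1 point per gene; blue points were called lower, red higher and grey neither, and black bars mark medians. The medians are -0.61 for the 8 membrane genes, -0.05 for other membrane, division and tether genes, 0.01 for import peroxins and -0.36 for matrix enzymes.

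For each member that was called, the 3 genes with the highest Pearson correlation across the 12 livers were listed, as a description that holds the difference between genotypes within it. For *Pex16* they were *Decr2* (r = 0.993), *Adtrp* (0.991) and *Cyp4a10* (0.99), for *Pex19* *Cerkl* (0.988), *Ech1* (0.986) and *Decr2* (0.984), and for *Pxmp4* *Retsat* (0.986), *Cerkl* (0.984) and *Ech1* (0.982). The transporters had other genes nearest to them, *Abcd2* being closest to *Ehhadh* (0.988), *Ephx2* (0.987) and *Amacr* (0.987), and *Abcd3* to the peroxisomal protease gene *Lonp2* (0.996), *Cmbl* (0.994) and the lipid droplet gene *Plin2* (0.993). *Pex3* was closest to *Angptl4* (0.975), *Uck1* (0.941) and *Zbtb10* (0.932). All livers were arrayed with the same platform, and the order among these genes was not tested.

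Some markers of other cell types were also called. Over all genes 7.24% were called in either direction, so a few calls in lists this short say little. The hepatoblast list (3 genes) averaged 12.41 to 12.56 in *Ppara*-/- livers and 12.25 to 12.47 in *Ppara*+/+ livers. Its mean differed by 0.19 (exact two-sided permutation p = 0.0043, not adjusted over the lists). The macrophage list (10 genes) averaged 9.13 to 9.31 in *Ppara*-/- livers and 9.1 to 9.22 in *Ppara*+/+ livers, a difference of 0.04 (exact two-sided permutation p = 0.23). Called higher were *Dlk1* (0.42) of the hepatoblast list, *Csf1r* (0.23) and *Cd5l* (0.4) of the macrophage list and *Reln* (0.16) of the stellate list. Called lower was the stellate marker *Des* (-0.39). The other 8 macrophage markers were not called and went in both directions, from *Vsig4* at -0.25 to *Marco* at 0.14. Granulocyte, megakaryocyte, endothelial and cholangiocyte lists had 0 genes called. The part of these cells in the members' differences was not tested. With an erythroid score as a covariate the same count of 6 members was called lower. The mean of the erythroid list differed by only 0.02 between genotypes, so that fit cannot speak for cell types whose markers differed more. The amounts of these cells were not measured here. No hepatoblast score was fitted.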

How the data were processed

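Total RNA of whole livers was hybridized to Affymetrix Mouse Gene ST arrays, 1 per liver. The table of the authors held log2 signals from RMA, a background correction, quantile normalization and probe summary in 1 procedure. The version and build were not given in the sources used here. These steps bring arrays to 1 distribution and can compress large differences. The table held 35556 probesets, of which 21789 had 1 gene symbol in the platform's probe table, 1621 several and 12146 none. For each gene the single-symbol probeset with the highest mean was used (19938 genes, no filter on signal). Arrays carry no read depth, and their number limits the precision.

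Genotypes were taken from the labels. Differences, *Ppara*-/- minus *Ppara*+/+, were fitted with limma 3.58.1 (lmFit, eBayes, two-sided) under R 4.3.3, and p-values of all genes were adjusted together by Benjamini-Hochberg (threshold 0.05). The remaining steps used Python 3.11.15, pandas 2.3.3, numpy 2.4.6 and matplotlib 3.10.9. On simulated arrays of 19938 genes the fit recovered 6 of 67 genes changed by 0.2, 58 of 67 changed by 0.5 and 65 of 66 changed by 1, with 7 false calls.

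Members and lists were chosen with earlier results of these data known, and some listed genes are not reported here. Named were the members, *Ppara*, up to 6 genes of each other peroxisome list by smallest p, the members' neighbours and the 3 genes most like each called member. *Fis1*, *Mff*, *Dnm1l*, *Abcd4*, *Pex5*, *Cat* and the called cell type markers were named outside this rule, after their values were seen. Alternatives were the animal number, each liver left out, an exact Mann-Whitney test, a sex score and an erythroid score, the mouse number as replicate block, array weights, an intensity trend, a mean over a gene's probesets, the removal of genes below the 25th or 50th percentile of signal, equal array medians and a second quantile normalization. The pairs of members were added after the data were seen.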

Additional observations from a re-analysis of the deposited data

Results flagged for a closer look

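In 16 groups of 6 livers (8 genes in each genotype), 2 held a liver whose gap to its nearest neighbour was large against the range of the group (by Dixon's criterion at the 95% level), which chance does in about 1 in 20 groups. *Pex11a* was 8.61 in *Ppara*-/- mouse 1, the lowest of its genotype, where the next liver was at 9.1 and the gap was 0.64 of the range. *Pex3* was 9.16 in *Ppara*+/+ mouse 5, the highest of its genotype, where the next liver was at 9.05 and the gap was 0.68 of the range.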

How the results depend on the processing

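*Pex16*, *Pex19*, *Abcd2*, *Abcd3* and *Pxmp4* kept their direction and their call in all 24 limma settings over both animal number groups and within each group; *Pex3* was called in 16 of the 24. The count of all genes called lower was 761 and of genes called higher 682. It was 1457 and 1286 with array weights, 449 and 401 with the sex score, 163 and 30 within the 6 lowest animal numbers and 106 and 117 within the 6 highest, and with these number groups as a block 422 were higher. With each liver left out in turn it ranged from 447 to 1147 lower and from 384 to 1374 higher. The highest counts came without *Ppara*-/- mouse 1. Both counts moved by over 1.5 times without *Ppara*-/- mouse 1, 2, 4, 5 or 6 or *Ppara*+/+ mouse 2, and 1 of them without *Ppara*+/+ mouse 1, 3 or 4. The members called lower were 5 or 6 in these fits, *Pex3* being the one lost. The exact Mann-Whitney test, adjusted over all genes, called 0 genes lower, 0 higher and 0 members (1855 and 1831 genes and 6 members at an unadjusted p under 0.05), since its smallest adjusted p was 0.06. With 1 liver left out, *Dlk1* kept its call in 4 of 12 fits, and *Cd5l* and *Reln* in 3. The matrix enzymes called lower were 20 to 25 in these fits, 13 within the 6 lowest animal numbers and 9 within the 6 highest, and the other membrane, division and tether genes called lower were 3 and 0 within these. Same-numbered mice of the 2 genotypes deviated together with correlations of 0.02 to 0.39 and 3 of 6 had their own number as best partner. As 2 of the correlations were under 0.1 and the labels tie the numbers to no litter or batch, the number was not used as a pairing. With it as a replicate block 823 genes were lower, 796 higher and 6 members lower, and *Pex13* (adjusted p = 0.069) and *Reln* were not called. A change of 0.2 on the log2 scale was rarely recovered in simulated arrays (6 of 67). Far fewer genes were changed there (67, 67 and 66, by size of change) than the 1443 called in the livers. The adjusted threshold was therefore harder to pass, and the simulation cannot set the limit for *Pex11a* and *Pex11g*. Their intervals in the main fit are the closer guide. That of *Pex11a*, -0.36 to 0.19, allows a fall of 0.2 in signal, and that of *Pex11g*, -0.11 to 0.11, does not. The mean signal of *Pex11g* was only at the 57th percentile of all genes. How closely a signal this dim follows its RNA was not tested, so a fall in *Pex11g* RNA could be missed.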

Other observations

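*Pex11a* was not called, so the rule named no genes most like it, and these were looked up after its values were seen. Across the 12 livers its pattern was nearest to *Sfxn1* (Pearson r = 0.951), *Gne* (0.944) and *Nrg4* (0.931), which differed between *Ppara*-/- and *Ppara*+/+ livers by -0.05, 0 and -0.07 (limma, adjusted p = 0.7, 0.98 and 0.89).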
